A study of Homo sapiens with 6 samples.

Results

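The genes described here encode chromatin regulators outside the SWI/SNF family: 49 genes for ATP-dependent remodellers of the CHD, ISWI, INO80 and SRCAP classes, for subunits of the NuRD and Polycomb complexes, and for a few acetyltransferases, methyltransferases and demethylases. They were taken by name from a fixed list, and all 49 were found among the 19974 protein-coding genes of chromosomes 1 to 22 and X in the RefSeq table of the GRCh38 build. Open chromatin was mapped with ATAC-seq, which uses a transposase (Tn5) to cut and tag exposed DNA, in Huh7, an established human hepatocellular carcinoma line. Endogenous ARID1A, a SWI/SNF subunit, had been knocked out in the cells of every group. The WT group carried a lentiviral Flag-tagged wild-type ARID1A, the V2084D group the same construct with the missense change V2084D, and the V2084D shSTUB1 group V2084D together with a knockdown of STUB1, a chaperone-linked ubiquitin ligase. There were 3 groups of 2 libraries, each library with its own deposited peak list of open regions. The labels name no control hairpin for the first 2 groups, and do not say whether the knockout line was 1 clone or whether replicates came from separate cultures.

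Remodellers use ATP to slide, evict or exchange nucleosomes. CHD and ISWI enzymes mainly space or slide nucleosomes, INO80 and SRCAP exchange or place the histone variant H2A.Z, and NuRD couples the CHD remodellers to histone deacetylases. Polycomb complexes write repressive methyl and ubiquitin marks on histones, whereas EP300, CREBBP and the COMPASS-like proteins KMT2C and KMT2D act at enhancers and promoters of active genes. Most of these proteins are made in nearly all cell types, including hepatocytes.

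The measurement used for each gene was whether a library's list held a peak within 1000 bp of either end of the gene, called a gene-end peak below. Each peak carries a deposited fold, which is the authors' ratio of reads at its summit to the local background of the same library, so folds of different libraries are given side by side and are not a measured change. Where the folds of 1 group lie above or below those of another, the share of all genes with that order is not given. Such an order is therefore a description of the gene alone. The strongest peaks of a gene in different libraries can also lie at different sites. No single stretch was common to all of them at CHD7, CHD8, BPTF, ACTR8, EP400, MTA2, MTA3, HDAC2, RBBP4, RBBP7, EED, EP300, KMT2D and KDM6A. Where no peak is listed, the caller found none at that depth, and the DNA was not thereby shown to be closed. The kept lists ran from 7234 to 29968 summits, with WT replicate 2 the shortest and V2084D replicate 2 the longest. Depth recovered from the deposited values was 1.01 and 1 times the lowest library in WT, 1.17 and 1.70 (V2084D), and 1.49 and 1.23 (V2084D shSTUB1), in replicate order. Gene-end peaks at markers of the labelled cell type were few: 10 of 14 hepatocyte genes, among them ALB, AFP and HNF4A, had none in any library, and at most 4 had one in a single library. Of 13 leukocyte, endothelial and fibroblast markers, COL1A1 had a peak in all 6 libraries and the endothelial gene KDR in every library but WT replicate 2. Of the 5 leukocyte genes among them, at most 2 had one in a single library. The markers therefore do not check the label of the line.

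The promoters of 6 of the genes are printed first because the comparisons below turn on them. SMARCAD1, ACTR5, CHD2, MTA3 and PCGF6 had a peak in every library of at least 1 V2084D-carrying group but in no WT library, and RBBP4 had the highest mean rank by −log10 q among the 49 genes. Each line gives the 250 bases before the outermost start listed for the gene, 5′ to 3′ on the strand of the gene, from RefSeq (GRCh38.p14). The stretches were placed by the listed start and not by the peaks, so a peak of the gene can lie outside them. Capitals mark matches, on either strand, to 10 short motifs whose letters are spelled out after the sequences. Matches may overlap one another.
SMARCAD1 (chr4:94207358-94207607, plus strand): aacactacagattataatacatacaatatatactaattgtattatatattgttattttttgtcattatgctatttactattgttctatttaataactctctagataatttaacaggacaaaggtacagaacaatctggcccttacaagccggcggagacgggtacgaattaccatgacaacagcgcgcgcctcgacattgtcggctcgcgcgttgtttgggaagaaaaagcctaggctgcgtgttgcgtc
ACTR5 (chr20:38748210-38748459, plus strand): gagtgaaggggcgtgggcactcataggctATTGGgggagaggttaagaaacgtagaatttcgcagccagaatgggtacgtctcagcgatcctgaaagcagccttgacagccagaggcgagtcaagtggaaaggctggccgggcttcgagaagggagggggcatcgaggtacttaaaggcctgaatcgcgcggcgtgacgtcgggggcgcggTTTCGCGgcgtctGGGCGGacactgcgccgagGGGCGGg
CHD2 (chr15:92900074-92900323, plus strand): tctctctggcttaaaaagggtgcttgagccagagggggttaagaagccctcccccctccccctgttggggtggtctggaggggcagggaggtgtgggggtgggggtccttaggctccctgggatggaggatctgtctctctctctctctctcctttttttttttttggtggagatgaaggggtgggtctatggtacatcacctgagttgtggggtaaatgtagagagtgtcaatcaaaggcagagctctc
MTA3 (chr2:42493860-42494109, plus strand): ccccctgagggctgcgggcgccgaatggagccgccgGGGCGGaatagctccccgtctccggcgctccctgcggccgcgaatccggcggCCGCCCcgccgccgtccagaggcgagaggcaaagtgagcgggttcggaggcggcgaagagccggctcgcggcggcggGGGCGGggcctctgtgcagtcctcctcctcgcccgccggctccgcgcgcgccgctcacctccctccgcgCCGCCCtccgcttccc
PCGF6 (chr10:103351141-103351390, minus strand): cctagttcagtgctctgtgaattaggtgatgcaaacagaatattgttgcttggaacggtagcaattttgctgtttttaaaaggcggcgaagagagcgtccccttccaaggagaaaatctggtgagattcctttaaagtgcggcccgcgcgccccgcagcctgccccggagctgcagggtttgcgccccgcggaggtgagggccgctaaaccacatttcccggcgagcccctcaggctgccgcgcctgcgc
RBBP4 (chr1:32650958-32651207, plus strand): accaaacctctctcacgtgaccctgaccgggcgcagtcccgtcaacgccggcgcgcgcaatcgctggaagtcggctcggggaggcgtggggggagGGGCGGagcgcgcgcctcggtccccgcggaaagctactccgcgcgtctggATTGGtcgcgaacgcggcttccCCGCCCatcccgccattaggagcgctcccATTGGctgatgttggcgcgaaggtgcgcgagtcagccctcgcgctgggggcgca

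The 6 sequences differed in base composition and in the motifs they held. GC content was 39.2% before SMARCAD1, 54.8% before CHD2, 58.4% before PCGF6, 62.4% before ACTR5, 71.2% before RBBP4 and 79.2% before MTA3. The SMARCAD1, CHD2 and PCGF6 stretches held none of the 10 searched motifs, the MTA3 stretch held 4 matches to GGGCGG, the GC box bound by SP and KLF factors, and the RBBP4 stretch held 2 matches to GGGCGG and 2 to CCAAT, the NF-Y letters. The ACTR5 stretch held 1 CCAAT, 1 TTTCGCG, an E2F-like word, and 2 GGGCGG matches.

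Over the 44 genes with an entry in the promoter table, in windows of 300 bases that run 250 before to 50 after the start, GGGCGG was found in 35 (79.5%), against 58.3% of the 15812 protein-coding promoters of the same length. CCAAT was in 36.4% of both sets. The ETS core CCGGAA was in 18.2% of the 44 and 22.7% of all promoters. AAGATGGCG, the YY1 letters, was in 3 of the 44 (ACTR5, PCGF1 and CREBBP, 6.82% against 2.69%), TTTCGCG was in 3 (CHD8, ACTR5 and KMT2D, 6.82% against 1.87%), and GCGGGAA, another E2F-like word, was in 5 (11.4% against 8.58%). The TATA box letters TATAAA were in RUVBL1 alone (2.27% against 9.75%), GCATGC was in EZH1 and EED (4.55% against 8.03%), and the AP-1 letters TGANTCA were in KDM6A alone (2.27% against 5.70%). TGACGTCA, the cAMP response element, was in none, against 2.56%. Median GC was 68.3% in the 44 windows and 62.7% in all promoters, and the median observed-to-expected CpG ratio was 0.903 and 0.762. BAZ1A, BPTF, CHD6, CHD7 and ATRX had no entry.

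Chromatin-regulator genes carried gene-end peaks more often than protein-coding genes as a whole in each of the 6 libraries. Of the 49 genes, 27 had one in WT replicate 1 and 22 in WT replicate 2 (mean 24.5 ± 3.54, SD, n = 2). The V2084D libraries held 25 and 40 (mean 32.5 ± 10.6, SD, n = 2), and the V2084D shSTUB1 libraries 36 and 33 (mean 34.5 ± 2.12, SD, n = 2). The V2084D libraries lay 15 genes apart, which is more than any pair of group means, and the V2084D shSTUB1 counts and WT replicate 1 fell within their range, while WT replicate 2 fell below it. The V2084D shSTUB1 counts did not overlap those of WT. No p-value was attached, since the smallest two-sided p of an exact permutation test of 2 against 2 is 0.333. The shares were 55.1% (95% exact binomial interval 40.2 to 69.3), 44.9% (30.7 to 59.8), 51.0% (36.3 to 65.6), 81.6% (68.0 to 91.2), 73.5% (58.9 to 85.1) and 67.3% (52.5 to 80.1) in the order of the libraries, and the intervals cover counting error only. Among all protein-coding genes the shares were 32.3%, 24.2%, 31.1%, 54.7%, 48.1% and 40.6%, so the chromatin genes stood at 1.49 to 1.86 times the share of their own library. When every list was shortened to its 7234 strongest summits, the counts became 20 and 22 (WT), 22 and 24 (V2084D), and 20 and 25 (V2084D shSTUB1). At equal length the 3 groups thus overlapped, and the gap between the V2084D libraries was 2 genes instead of 15.

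**Figure D1:**
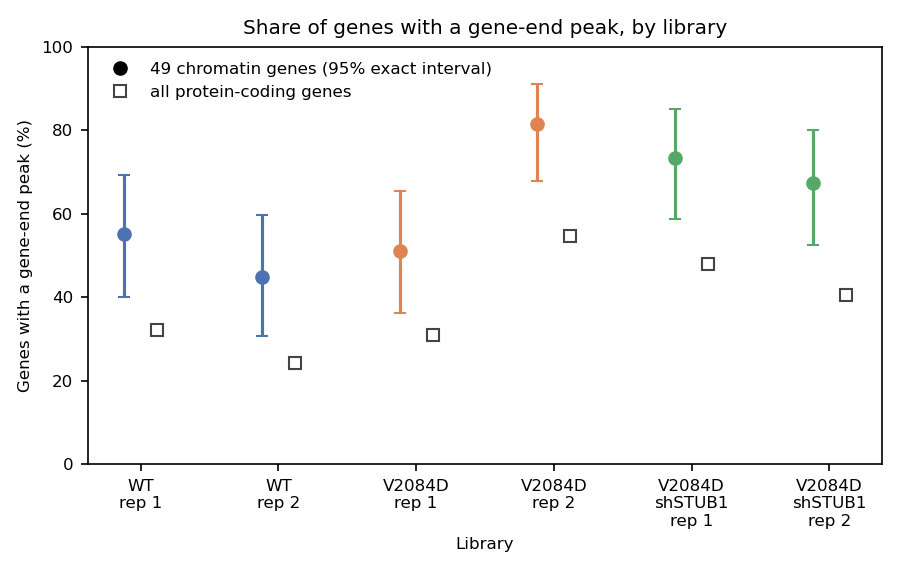
Share of genes with a gene-end peak (y axis, %) in each of the 6 libraries (x axis), as filled circles with 95% exact binomial intervals for the 49 chromatin genes and as open squares for all 19974 protein-coding genes. The circles lie above the squares in every library, from 44.9% against 24.2% in WT replicate 2 to 81.6% against 54.7% in V2084D replicate 2, and both kinds of symbol move together.

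A gene-end peak in all 6 libraries was found for 17 of the 49 genes (34.7%), against 15.8% of all protein-coding genes. No library held one for 7 genes (14.3%), against 41.8%. Presence in all 6 was also more frequent than among 28 SWI/SNF subunit genes (4, or 14.3%) and among 83 further subunits of the same complexes (17, or 20.5%), and absence from all 6 was less frequent (28.6% and 19.3%). These are descriptions, and the differences between lists were not tested. Between these extremes, 7 genes had a peak in 5 libraries, 6 in 4, 4 in 3, 2 in 2 and 6 in 1. Among the 7 genes with 5 libraries, WT replicate 2 was the library without the peak for HDAC2, MBD2, EED, PCGF1 and KDM6A, and WT replicate 1 for CHD9 and ACTR8. Of the 6 single-library genes, 5 (CHD4, SMARCA1, RNF2, CREBBP and KMT2C) had it in V2084D replicate 2, the deepest library with the longest list, and ATRX had it in WT replicate 2.

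**Figure D2:**
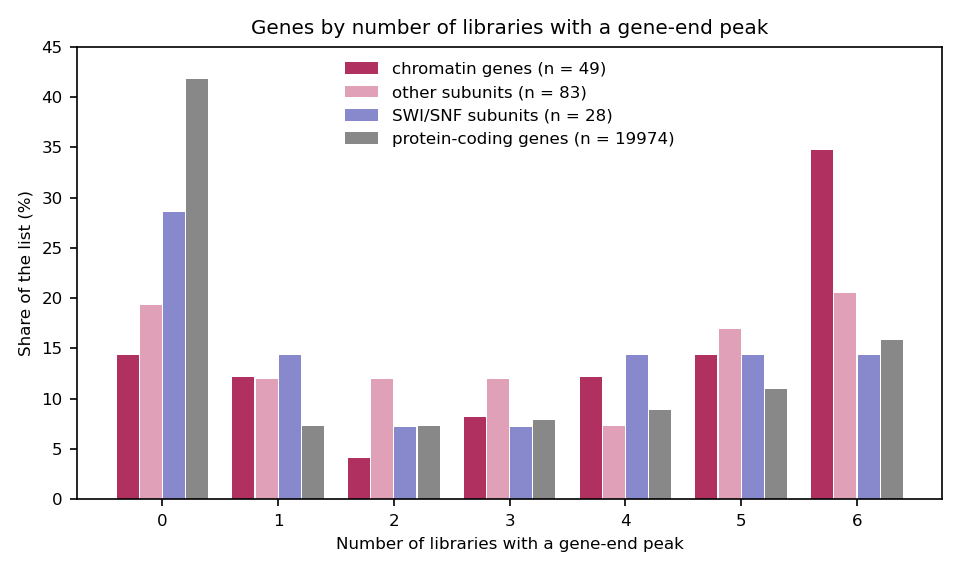
Share of each gene list (y axis, %) by the number of libraries that held a gene-end peak (x axis, 0 to 6), for the 49 chromatin genes, 83 further subunits of the same complexes, 28 SWI/SNF subunits and all 19974 protein-coding genes. The chromatin genes have their highest bar at 6 libraries (34.7%), whereas all protein-coding genes have theirs at 0 (41.8%).

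The strongest gene-end peaks lay mostly near a listed start. A gene-end peak lies by definition within 1000 bp of a gene end, so this closeness is partly set by the rule. The same shares over all genes are not given. Over the 6 libraries there were 183 strongest gene-end peaks of these genes, 170 of them at genes with a listed start. Their summits lay a median of 204.5 bp from it (80.6% within 500 bp and 92.9% within 1000 bp), 121 upstream and 49 downstream. A strongest gene-end peak rested on a median of 12 reads at its summit (lowest 4, highest 64), where all summits of a library had medians of 8 to 12.

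**Figure D3:**
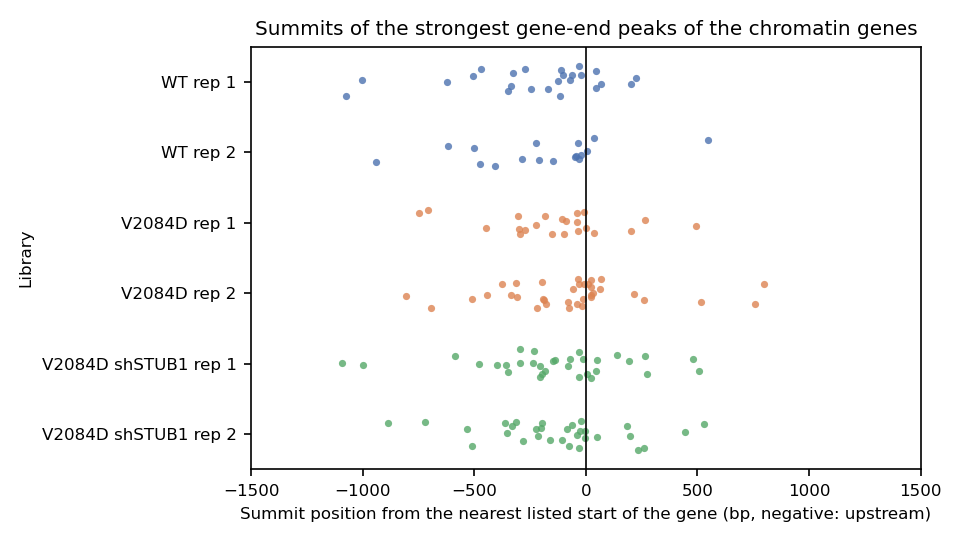
Position of the summit of each gene's strongest gene-end peak relative to the nearest listed start (x axis, bp, negative values upstream) in each library (y axis), 1 point per gene. Of 170 peaks, 161 fall inside the plotted 1500 bp on either side and 9 outside, and the points gather close to and just upstream of the start in all 6 libraries.

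Among the CHD remodellers, CHD1 and CHD8 had a gene-end peak in every library and CHD3 in none. CHD1, which binds methylated histone H3 at transcribed genes, had folds of 6.98 and 7.29 (WT), 5.6 and 7.02 (V2084D), and 7.95 and 6.77 (V2084D shSTUB1), with no separation of the groups. CHD8, a regulator in the Wnt and p53 pathways, had 7.73 and 6.99 (WT), 8.76 and 10.6 (V2084D), and 7.48 and 6.31 (V2084D shSTUB1). Its peaks lay at both gene ends. In both WT libraries the strongest one was at the 3′ end, 8 and 7 bp from the start of the neighbour SUPT16H. It was at that end also in V2084D replicate 1 and V2084D shSTUB1 replicate 2. In V2084D replicate 2 and V2084D shSTUB1 replicate 1 it was at the 5′ end, so the CHD8 folds are not all from 1 site. A separate region inside the gene (chromosome 14, 21436925 to 21437976), 114 bp from the start listed for CHD8, was open in all 6 libraries with folds of 5.68 to 9.55.

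CHD9 had a gene-end peak in 5 libraries, with folds of 4.61 in WT replicate 2, 5.80 and 7.30 (V2084D), and 4.76 and 5.13 (V2084D shSTUB1). WT replicate 1 lacked it and held instead a peak at another listed start inside the gene (chromosome 16, 53130544 to 53131059), which 4 libraries shared. CHD6 had weak peaks of 3.57 and 4.86 in WT, 5.83 in V2084D replicate 2 and 4.95 in V2084D shSTUB1 replicate 1, on 4 to 11 reads. CHD7, the gene mutated in CHARGE syndrome, had 4.17 in V2084D replicate 2 and 4.43 in V2084D shSTUB1 replicate 1, the 2 longest lists. For CHD4, the main ATPase of NuRD, the single peak was in V2084D replicate 2 (fold 4.40), 1736 bp upstream of the listed start.

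CHD2, which deposits the histone variant H3.3, had its gene-end peak in V2084D replicate 2 and in both V2084D shSTUB1 libraries (folds 4.52, 4.51 and 4.04, on 14, 12 and 10 reads). These summits lay 16, 32 and 5 bp upstream of the start whose flank is printed above. A second region inside CHD2 (chromosome 15, 92904122 to 92904703), 4169 bp from that start, was open in all 6 libraries at 5.41 to 9.29. At CHD3, the NuRD paralog of CHD4, an internal region (chromosome 17, 7887531 to 7888155), 1048 bp from the listed start, was open in 5 libraries with folds of 4.63 to 5.43, V2084D replicate 1 being without it.

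**Figure D4:**
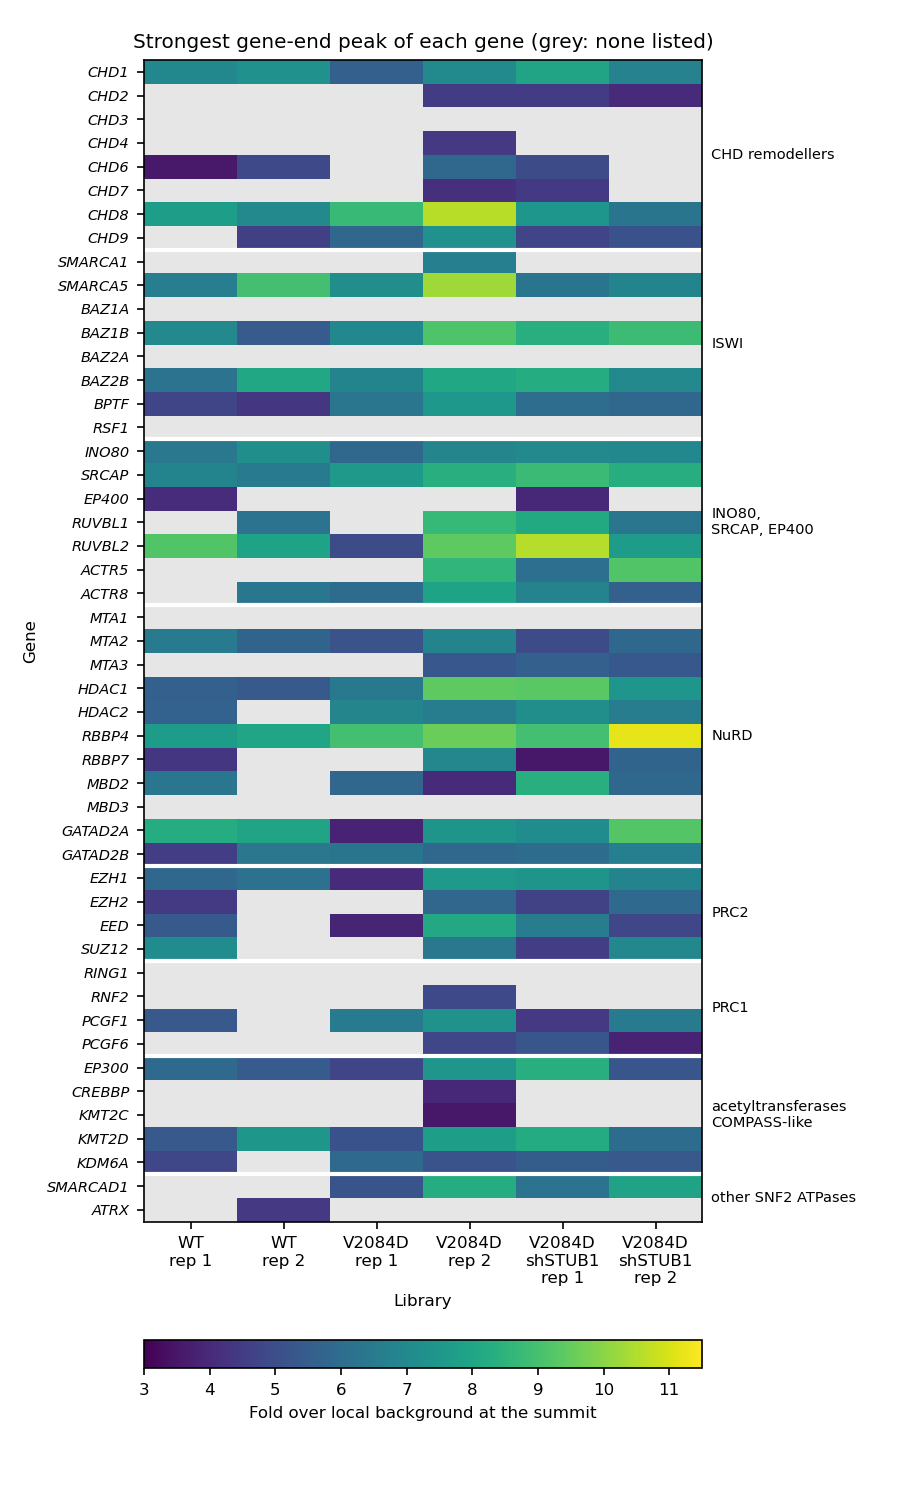
Fold over local background at the summit of the strongest gene-end peak (colour) for each of the 49 genes (rows, grouped by complex) in each of the 6 libraries (columns), with grey where none was listed. RBBP4, SRCAP and BAZ1B are coloured in every column, MBD3 and RING1 in none, and V2084D replicate 2 has the fewest grey cells (40 of 49 coloured).

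The ISWI genes divided into constant and absent ones, with 4 to 5 of 8 carrying a gene-end peak in any library. SMARCA5, the ISWI ATPase shared by most of these complexes, had folds of 6.63 and 8.95 (WT), 7.21 and 10.3 (V2084D), and 6.29 and 6.82 (V2084D shSTUB1). BAZ1B, the WSTF subunit, had 7.0 and 5.45, 6.97 and 9.17, and 8.33 and 8.84 in the same order. BAZ2B had 6.25 and 8.05, 6.82 and 8.09, and 8.26 and 7.0, and BPTF, the largest subunit of NURF, had 4.79 and 4.35, 6.33 and 7.52, and 6.04 and 5.84. The WT values of BPTF rested on 6 and 5 reads, and the peaks of V2084D replicate 1 and V2084D shSTUB1 replicate 1 lay beside the WT peaks without overlapping them, so the BPTF folds are not all from 1 site. The folds of BAZ2B overlapped between every pair of groups. Both V2084D folds of SMARCA5 lay above both of V2084D shSTUB1, and both WT folds of BAZ1B lay below both of V2084D shSTUB1.

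SMARCA1, the other ISWI ATPase, had 1 peak, in V2084D replicate 2 (fold 6.67, 11 reads). BAZ1A, BAZ2A and RSF1 had no gene-end peak, but each was open at an internal site in several libraries. At BAZ2A, a subunit of the nucleolar remodelling complex NoRC, the site (chromosome 12, 56636726 to 56637239) was 532 bp from a listed start and open in 5 libraries at 4.78 to 7.04. At BAZ1A (chromosome 14, 34873217 to 34874034) 5 libraries had folds of 5.08 to 5.56. At RSF1 (chromosome 11, 77820752 to 77821506) the site was within 1000 bp of the listed start, with its summit 274 bp from that of AAMDC, and was open in WT replicate 1, V2084D replicate 2 and V2084D shSTUB1 replicate 1.

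Of the INO80, SRCAP and EP400 genes, INO80, SRCAP and RUVBL2 were open in all 6 libraries. INO80, the ATPase of its complex, had a narrow range of folds, 6.4 and 7.22 (WT), 5.88 and 6.87 (V2084D), and 7.01 and 6.98 (V2084D shSTUB1), with every summit 272 to 310 bp upstream of the start. SRCAP, the H2A.Z exchange ATPase, had 6.82 and 6.54, 7.55 and 8.33, and 8.81 and 8.29, so that both WT folds lay below the other 4. The WT libraries are the shallowest, and the part of depth in this order was not tested. The SRCAP summits lay between positions -1001 and -500 relative to its start, near the start of LOC730183. RUVBL2, an AAA ATPase found in INO80, SRCAP and TIP60 complexes, had 9.18 and 7.94, 4.95 and 9.38, and 10.6 and 7.66, with V2084D replicate 1 the lowest.

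RUVBL1, the partner of RUVBL2, had gene-end peaks in 4 libraries at 6.25 to 8.70, near the start of EEFSEC, and all 6 libraries shared a region (chromosome 3, 128123476 to 128124342) 57 bp from another listed start of the gene, with folds of 5.84 to 9.66. ACTR8, an actin-related subunit of INO80, had 6.34 in WT replicate 2, 6.02 and 7.92 (V2084D), and 6.79 and 5.62 (V2084D shSTUB1). EP400, the ATPase of the TIP60 complex, had weak peaks in WT replicate 1 and V2084D shSTUB1 replicate 1 (4.07 and 3.98, 6 reads each) that did not overlap. ACTR5, the other actin-related INO80 subunit listed, had none in WT or V2084D replicate 1, and 8.61 in V2084D replicate 2 and 6.12 and 9.18 in V2084D shSTUB1, on 20, 11 and 17 reads.

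NuRD subunits included the gene ranked highest and 2 genes with no gene-end peak. RBBP4, a histone-binding WD40 protein shared by NuRD and the PRC2 Polycomb complex, had the highest mean rank by −log10 q within the lists (percentile 99.3). Its folds were 7.67 and 8.0 (WT), 8.97 and 9.59 (V2084D), and 8.95 and 11.2 (V2084D shSTUB1), on 23 to 64 reads. These strongest peaks were at 2 sites: in WT the summits lay at -621 and -617 bp from the start, near ZBTB8OS, and in the other 4 libraries at -234 to -182 bp. At the upstream site the folds were 7.67 and 8.0 in WT against 5.74 to 8.06 in the others, with no separation. At the near site they were 6.36 and 6.67 in WT, below 8.97 and 9.59 (V2084D), and 8.95 and 11.2 (V2084D shSTUB1). The WT summits there lay at -98 and -141 bp, nearer to the start than those of the others. HDAC1, a deacetylase of NuRD, had 5.6 and 5.39, 6.45 and 9.39, and 9.33 and 7.45, on 10 to 39 reads, with both WT values the lowest. The shallowest 2 libraries are those of WT, and the part of depth in this order was not tested.

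MTA2, a scaffold subunit, had 6.46 and 5.74, 5.17 and 6.85, and 4.97 and 5.88, with the groups overlapping. GATAD2A had 8.25 and 7.98, 3.85 and 7.39, and 7.14 and 9.22, and its paralog GATAD2B 4.55 and 6.37, 6.32 and 5.88, and 6.0 and 6.67, and the folds of GATAD2B overlapped between every pair of groups. Both WT folds of GATAD2A lay above both V2084D folds. HDAC2 had 5.68 in WT replicate 1, 6.86 and 6.59 (V2084D), and 7.20 and 6.57 (V2084D shSTUB1), and was without a peak in WT replicate 2. MBD2, a methyl-CpG binding subunit, had the same presence with folds of 6.35, 5.80, 4.0, 8.33 and 5.88.

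RBBP7, the paralog of RBBP4, was present in WT replicate 1 (4.35), V2084D replicate 2 (6.95) and both V2084D shSTUB1 libraries (3.54 and 5.75). The V2084D shSTUB1 peaks of RBBP7 overlapped neither one another nor those of the other libraries. MTA3 had no peak in WT or V2084D replicate 1, and 5.30, 5.6 and 5.34 in V2084D replicate 2 and V2084D shSTUB1 replicates 1 and 2. The MTA3 peaks did not share 1 common stretch, with summits 796 and 479 bp downstream and 63 bp upstream of the start. MTA1 had no gene-end peak and 1 internal peak, in V2084D replicate 2 (fold 5.41, chromosome 14, 105448347 to 105448876). MBD3 had no peak at all in any library.

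PRC2 genes were present in 4 libraries throughout and thinned out in WT replicate 2 and V2084D replicate 1. EZH1, the less active of the methyltransferase paralogs, was present in all 6 with folds of 5.84 and 6.16, 4.02 and 7.56, and 7.41 and 6.82. EZH2, the main methyltransferase, had 4.43 in WT replicate 1, 5.80 in V2084D replicate 2, and 4.64 and 5.91 in V2084D shSTUB1. SUZ12, the scaffold of PRC2, had the same presence at 7.14, 6.4, 4.55 and 6.96. EED, which binds the mark that PRC2 makes, was also present in V2084D replicate 1 (3.89) and had 5.42, 8.13, 6.58 and 4.81 in the other 4 libraries with a peak. All 4 PRC2 genes thus had a peak in WT replicate 1, V2084D replicate 2 and both V2084D shSTUB1 libraries. WT replicate 2 held 1 of 4 and V2084D replicate 1 held 2 of 4. These 2 lists were the shortest, with 7234 and 9036 kept summits. They held a gene-end peak for 24.2% and 31.1% of all protein-coding genes, the lowest shares of the 6 libraries. The part of list length in this pattern was not tested.

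PRC1 genes were the least often present of the larger groups. PCGF1, of a variant PRC1, had 5.38 in WT replicate 1, 6.54 and 7.32 (V2084D), and 4.40 and 6.48 (V2084D shSTUB1), with summits within 76 bp of its start in every case. PCGF6, of another variant PRC1, had no peak in WT or V2084D replicate 1, and 4.81, 5.29 and 3.85 in V2084D replicate 2 and the V2084D shSTUB1 libraries, on 9, 8 and 5 reads. RNF2, the main E3 ligase of PRC1, had 1 peak, in V2084D replicate 2 (4.89), and RING1, its paralog, had none in any library.

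Of the acetyltransferase and COMPASS-like genes, EP300 and KMT2D were present in all 6 libraries. EP300 had 5.91 and 5.43 (WT), 4.79 and 7.43 (V2084D), and 8.33 and 5.29 (V2084D shSTUB1), with every summit 749 to 1093 bp upstream of the start, and no library held a peak within 500 bp of a gene end. Its paralog CREBBP had 1 peak, in V2084D replicate 2 (3.93, 6 reads). KMT2D had 5.38 and 7.50, 5.15 and 7.75, and 8.22 and 6.0, but in WT replicate 2 and V2084D replicate 1 the peak was at the other gene end, beside the start of PRKAG1, and none was listed at the start of KMT2D. KMT2C, the paralog of KMT2D, had 1 gene-end peak, in V2084D replicate 2 (3.54, 8 reads). KDM6A, the demethylase that works with both, had 4.82 in WT replicate 1, 5.91 and 5.16 (V2084D), and 5.50 and 5.38 (V2084D shSTUB1).

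SMARCAD1 is a remodeller of the SNF2 family with roles in heterochromatin upkeep and DNA end resection. Alone of the 49, it had a gene-end peak in all 4 V2084D-carrying libraries and in neither WT library. That is 2.04% of the 49, against 3.06% of all protein-coding genes. The WT libraries were the shallowest, and the part of depth in this pattern was not tested. The folds of SMARCAD1 were 5.22 and 8.25 (V2084D), and 6.25 and 7.89 (V2084D shSTUB1), on 6, 16, 9 and 11 reads. The 4 peaks overlapped one another at the 5′ end of the gene (chromosome 4, 94207608 to 94291292), with summits within 79 bp of a listed start. More than 1 start is listed for the gene, and all 4 summits (94207618 to 94208005) lay downstream of the stretch printed above. The peak of V2084D replicate 1 (94207702 to 94207954) did not overlap that stretch. ATRX, which places H3.3 at repeats, had 1 peak, in WT replicate 2 (4.42, 4 reads).

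Setting WT against V2084D asks where accessibility differs when the C-terminal missense form of ARID1A replaces the wild-type one. A gene counted as called when every library of 1 group had a gene-end peak and no library of the other did. On the V2084D side 1 of 49 genes was called (SMARCAD1, 2.04%), against 5.07% of all protein-coding genes. On the WT side 0 of 49 were called, against 0.0501%. The V2084D side rested on single libraries: without WT replicate 1 it held 6 genes, without WT replicate 2 it held 3, and without V2084D replicate 1 it held 11, among them CHD2, ACTR5, MTA3 and PCGF6. Without V2084D replicate 2 it held SMARCAD1 alone, and the WT side held CHD6. The shares of all protein-coding genes with 1 library left out are not given, so these counts cannot be set against them. SMARCAD1 was also called when the lists were of equal length, but not with peaks of −log10 q of at least 5, where BPTF, HDAC2 and PCGF1 were called instead.

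Setting V2084D against V2084D shSTUB1 asks about the STUB1 knockdown in cells with the missense form. Loss of STUB1 and the presence of any hairpin cannot be told apart in this design. No chromatin gene was called on either side, against 0.656% of protein-coding genes on the V2084D side and 0.365% on the shSTUB1 side. Shares of this size come to less than 1 gene in 49. Without V2084D replicate 2, 8 genes were called on the shSTUB1 side (CHD2, RUVBL1, ACTR5, MTA3, RBBP7, EZH2, SUZ12 and PCGF6), and without V2084D replicate 1, 5 were called on the V2084D side (CHD4, SMARCA1, RNF2, CREBBP and KMT2C). Without V2084D shSTUB1 replicate 2, EP400 was called on the shSTUB1 side. These counts with 1 library left out have no share of all protein-coding genes beside them.

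Setting WT against V2084D shSTUB1 asks whether the knockdown cells are closer to WT. On the shSTUB1 side 5 of 49 genes were called (10.2%): CHD2, ACTR5, MTA3, PCGF6 and SMARCAD1, against 7.07% of protein-coding genes. On the WT side 0 were called, against 0.135%. Both comparisons with WT use the same WT libraries. Of the 5 genes, SMARCAD1 alone also had a peak in V2084D replicate 1, and all had one in V2084D replicate 2. The count was 13 without WT replicate 1 and 8 without WT replicate 2, with no share of all protein-coding genes to set beside them. With lists of equal length none of the 5 was called. With peaks of −log10 q of at least 5 the count was again 5, but ACTR5 and SMARCAD1 were the 2 shared genes, beside RUVBL1, HDAC2 and EZH1. The V2084D shSTUB1 libraries were deeper (1.49 and 1.23 times the lowest library, against 1.01 and 1), and the part of depth in this count was not tested.

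When WT was set against all 4 V2084D-carrying libraries, SMARCAD1 was called on the V2084D side (2.04%, against 3.06% of protein-coding genes) and no gene on the WT side (against 0.025%). No p was given here either, the smallest from an exact permutation test of 2 against 4 being 0.0667. Without WT replicate 1 the V2084D side held 6 genes, without WT replicate 2 it held 3 and without V2084D replicate 1 it held 5. Here too the shares of all protein-coding genes are not given. With peaks of −log10 q of at least 5, HDAC2 was called in place of SMARCAD1 (against 1.61% of protein-coding genes), and with lists of equal length no gene was called (against 0.641%).

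Of 83 further genes, 2 were called on the V2084D side against WT (2.41%, against 5.07% of protein-coding genes): MORF4L1, a chromodomain subunit of the TIP60 complex, with folds of 5.50 and 5.06 (V2084D), and 3.97 and 4.31 (V2084D shSTUB1), and SCMH1, a Polycomb protein, with 4.13 and 4.84 in V2084D. SCMH1 had no gene-end peak in V2084D shSTUB1 and was the 1 further gene called there on the V2084D side (1.20%, against 0.656%). Against WT, 10 of 83 were called on the shSTUB1 side (12%, against 7.07%), led by INO80E, an INO80 subunit (5.04 and 6.25), JARID2, a PRC2 cofactor (4.40 and 8.11), PCGF3 (6.19 and 5.70) and MEAF6, a subunit of histone acetyltransferase complexes (6.25 and 4.61). No further gene was called on a WT side, or on the shSTUB1 side against V2084D.

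Peaks inside the genes and away from their ends were fewer. They formed 31 regions in 18 of the 49 genes, of which 3 were open in all 6 libraries (at CHD2, CHD8 and RUVBL1) and 18 in 1 library alone. Of those 18, 11 were in V2084D replicate 2, 4 in V2084D shSTUB1 replicate 1, 2 in V2084D shSTUB1 replicate 2, 1 in V2084D replicate 1, and none in WT. By gene, 9 and 5 of the 49 had such a peak in WT (18.4% and 10.2%), 6 and 14 (12.2% and 28.6%) in V2084D, and 12 in each V2084D shSTUB1 library (24.5%). Over all protein-coding genes the shares were 8.42%, 5.84%, 7.01%, 20.5%, 16.2% and 11.9% in the order of the libraries, and the chromatin genes were longer (median 73.1 kb against 24.2 kb). With peaks of −log10 q of at least 5 the counts were 3, 3, 3, 10, 7 and 3. The shares of all protein-coding genes were then 2.69%, 1.52%, 1.86%, 10.3%, 6.9% and 4.26% in the same order. V2084D shSTUB1 replicate 2 thus held as many of the 49 as each WT library, while its share of all genes was above theirs. CHD9 and RUVBL1 had the most, 8 each over the 6 lists, followed by CHD2, BAZ1A, BAZ2A and GATAD2A with 7 each. In GATAD2A the recurrent region (chromosome 19, 19405080 to 19405826) was 29 bp from a listed start inside the gene and open in 5 libraries at 4.04 to 7.48. Of the 8 regions open in 4 or more libraries, 6 had a base within 1000 bp of a start listed for the gene (CHD3, CHD8, CHD9, BAZ2A, RUVBL1 and GATAD2A). A KMT2C region far from any listed start (chromosome 7, 152314188 to 152314437) was open in V2084D replicate 2 and V2084D shSTUB1 replicate 2, with folds of 4.76 to 9.15. Whether these sites are exonic or intronic was not determined.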

How the data were processed

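The submitters' processing notes list Trimmomatic, Bowtie2, SAMtools and Picard, MACS2, and also bedtools and deepTools, with hg38 as build. No version or setting, and nothing on Tn5 offset correction, is stated there. The deposited files are narrowPeak lists called per library. Each deposited summit carries a fold (ratio to local background), a −log10 p, a −log10 q and a score, all computed by the authors. The score was not used.

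Samples were grouped by title. Reads at summits and relative depth were recovered from the deposited fold and −log10 p with a Poisson model and a pseudocount of 1 (whole numbers for 100% of summits within 0.001). This step and the calling rule were tested on simulated data. Gene coordinates and promoter sequences came from RefSeq tables (GRCh38.p14), which matched 49 and 44 of the 49 genes. A peak counted for a gene when any base lay within 1000 bp of a gene end. Motifs were searched on both strands with Python 3.11.15. No p-value was computed. Named genes were those called, the 8 leading genes present in all libraries, those in 1 or no library, and the 6 with most internal peaks, and the others were described by complex. The genes, lists and rules were chosen with earlier results of these data known.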

Additional observations from a re-analysis of the deposited data

How the results depend on the processing

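No paired analysis was possible because the results are presence counts that come from no test, so a replicate block has nothing to enter. With peaks of −log10 q of at least 5, the genes called on the V2084D side against WT numbered 3 (6.12%, against 3.44% of protein-coding genes), those present in all 6 libraries 5 (10.2% against 3.18%), and those present in none 16 (32.7% against 54.4%). With lists of equal length, 0 genes were called on the shSTUB1 side against WT (against 1.75% of protein-coding genes) and 0 on the V2084D side of the comparison with all 4 V2084D-carrying libraries (against 0.641%), 11 were present in all 6 libraries (22.4% against 8.41%) and 17 in none (34.7% against 56.7%). With annotated starts alone, 4 of 44 genes had no peak (9.09% against 37.9%): CHD4, MTA1, MBD3 and RING1. CHD3, BAZ2A and RSF1 left this set, as they had peaks within 1000 bp of a listed start inside the gene. BAZ1A has no listed start and was not counted, and CHD4 joined the set. Windows of 500 and 2000 bp, and summits in place of whole peaks, left the counts of called, always present and never present genes within 1.5 times their values. Single genes moved: at 500 bp EP300 went from 6 libraries to 0 and CHD4 from 1 to 0, and at 2000 bp BAZ1A and BAZ2A went from 0 to 5 and CHD4 from 1 to 4. Leaving out 1 library at a time gave 0 to 1 genes on the WT side and 1 to 11 on the V2084D side of WT against V2084D, 0 to 5 on the V2084D side and 0 to 8 on the shSTUB1 side of V2084D against V2084D shSTUB1, 0 to 1 on the WT side and 5 to 13 on the shSTUB1 side of WT against V2084D shSTUB1, and 0 to 1 on the WT side and 1 to 6 on the V2084D side of WT against all 4. Presence in all remaining libraries ranged from 17 to 22 genes and absence from 7 to 12. With 1 library left in a group, a call rests on that library. The counts with 1 library left out have no share of all protein-coding genes beside them. The cause of these changes was not tested. Counts per library at equal length were added after seeing the data. Most summits rested on few reads, so an absence reported here means only that no peak was called in that library. The part of depth in the absences was not tested.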

Other observations

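A pair of summits before RBBP4 was found in each library, and the order of their reads differed between WT and the other libraries. This was noticed after the values were seen and was not tested. Relative to the start of RBBP4, the upstream summit lay at -624 to -607 bp, close to a start of the neighbour ZBTB8OS. The near summit lay within the sequence printed above, at -98 and -141 bp in WT and at -234 to -182 bp in the other libraries. Whether the near summits of WT and of the others mark the same site was not determined. Other summits at the locus, such as one at -887 bp in V2084D replicate 2 (29 reads), were not used. In WT the upstream summit had more reads than the near one, 24 against 20 and 23 against 19. In V2084D the near summit had more, 32 against 20 and 64 against 54, and likewise in V2084D shSTUB1, 45 against 40 and 54 against 36. The ratio of near to upstream reads was 0.833 and 0.826 (WT), 1.6 and 1.19 (V2084D), and 1.12 and 1.5 (V2084D shSTUB1). Each of these ratios rests on 19 to 64 reads a summit and carries their counting error. The part of depth in their order was not tested.

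Among all protein-coding promoters with a table entry, those of genes without a gene-end peak in any library had a lower median GC content (55.7%, 6193 genes) than those of genes with a peak in all 6 (64.3%, 2724 genes). The chromatin genes did not show that order: the 6 without a gene-end peak had a median of 70.5% and the 16 with a peak in all 6 a median of 67.7%. The median observed-to-expected CpG ratio was 0.867 and 0.887 in these 6 and 16 genes, against 0.354 and 0.855 over all genes. Of those 6, CHD3, BAZ2A and RSF1 had a peak within 1000 bp of a listed start inside the gene in 5, 5 and 3 libraries, so their promoters are not without peaks. Their GC content was 56.0%, 56.3% and 66.7%, below the 77.7%, 77.0% and 74.3% of MTA1, MBD3 and RING1. The medians are over few genes and were not tested.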
